A study of Homo sapiens with 8 samples.

Results

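Chromatin accessibility was examined at 9 genes of heme biosynthesis in HUDEP-2 cells, an established human erythroid precursor line. The genes were ALAS1, ALAS2, ALAD, UROS, UROD, CPOX, PPOX, FECH and SLC25A38. An accessible region was counted when the summit of any peak in it lay in the body of a member or within 30 kb of one of its annotated starts. By this rule, which used no measured level, 52 of 43654 regions belonged to the 9 genes, and no region was shared by a pair of them. All samples came from cells carrying the control guide RNA sgControl, deprived of growth factors for 5 h and then given either PBS or the Kit ligand SCF, at 50 ng/ml, for 1 h. About 50000 cells entered each ATAC-seq library, an assay in which the transposase Tn5 inserts adapters into open DNA. There were 2 libraries per treatment. The study's methods call the 2 libraries of a treatment biological duplicates. The labels do not say whether they came from separate cultures, so part of the spread given here may be technical. The 4 sgEGR1 samples were not analysed here. The comparison of SCF with PBS asks whether acute Kit signaling altered accessibility at these genes.

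Heme is made along a pathway that begins and ends in the mitochondrion. ALAS1, the housekeeping isoenzyme, or ALAS2, the erythroid isoenzyme, joins glycine to succinyl-CoA, and the carrier SLC25A38 imports the glycine. ALAD, UROS and UROD build the ring in the cytosol, CPOX and PPOX oxidise it, and FECH inserts the iron. The list does not hold every enzyme of the pathway. In erythroid cells the pathway is driven by GATA1, which binds promoters and introns of several of these genes. The introns 1 and 8 of ALAS2 hold known erythroid enhancers, and ALAD and UROS each have a housekeeping promoter upstream and an erythroid promoter farther into the gene.

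The windows that the results turn on are shown first, each spanning 100 bases on either side of the summit and read 5′ to 3′ on the strand of the gene (reference GRCh37). The summit of a region is that of its highest-ranked peak in any library, and the summits of other libraries can lie outside the window. Capitals mark the GATA words AGATAA and TGATAA and the AP-1 word TGANTCA, on either strand. In ALAS2, the region of intron 8 (chrX:55041464-55041664) had the highest rank of the gene's own regions, that of intron 1 (chrX:55054463-55054663) was lower, and that of the promoter (chrX:55057433-55057633) was called in 1 library only.
ALAS2 intron 8: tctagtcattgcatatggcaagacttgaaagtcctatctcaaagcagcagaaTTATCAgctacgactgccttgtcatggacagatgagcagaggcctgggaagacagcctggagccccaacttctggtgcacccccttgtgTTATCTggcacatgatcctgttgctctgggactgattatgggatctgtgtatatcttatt
ALAS2 intron 1: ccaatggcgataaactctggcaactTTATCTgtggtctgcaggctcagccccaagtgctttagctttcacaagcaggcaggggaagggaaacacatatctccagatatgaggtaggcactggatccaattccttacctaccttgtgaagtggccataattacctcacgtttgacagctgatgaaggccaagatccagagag
ALAS2 promoter: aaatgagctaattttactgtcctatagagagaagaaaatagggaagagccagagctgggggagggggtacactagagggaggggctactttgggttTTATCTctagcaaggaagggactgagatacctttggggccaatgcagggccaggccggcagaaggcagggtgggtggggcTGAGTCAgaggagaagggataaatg

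The starts of ALAD and UROS are shown in pairs, because the first start of each had a high rank and no GATA word, whereas the internal start had a lower rank and 1 GATA word. The windows were chr9:116163522-116163722 and chr9:116159596-116159796 for ALAD, and chr10:127511825-127512025 and chr10:127505081-127505281 for UROS.
ALAD first start: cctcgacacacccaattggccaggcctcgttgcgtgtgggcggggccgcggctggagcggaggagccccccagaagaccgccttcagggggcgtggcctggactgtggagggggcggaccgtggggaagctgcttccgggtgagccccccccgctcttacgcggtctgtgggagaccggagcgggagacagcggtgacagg
ALAD internal start: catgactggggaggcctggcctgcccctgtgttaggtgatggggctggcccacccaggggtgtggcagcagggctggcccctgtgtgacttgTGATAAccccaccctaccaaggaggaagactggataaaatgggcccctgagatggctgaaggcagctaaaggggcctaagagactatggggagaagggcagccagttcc
UROS first start: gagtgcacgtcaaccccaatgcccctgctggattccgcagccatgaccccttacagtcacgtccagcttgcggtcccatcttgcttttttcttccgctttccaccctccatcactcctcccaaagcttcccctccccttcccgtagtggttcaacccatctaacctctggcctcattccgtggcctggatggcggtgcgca
UROS internal start: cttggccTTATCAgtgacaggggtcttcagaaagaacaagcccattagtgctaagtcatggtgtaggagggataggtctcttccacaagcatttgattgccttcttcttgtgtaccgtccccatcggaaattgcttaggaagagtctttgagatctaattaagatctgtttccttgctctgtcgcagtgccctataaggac

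The window in intron 1 of FECH (chr18:55250661-55250861) is shown because it outranked the gene's own promoter and held 2 GATA words. The window in exon 5 of CPOX (chr3:98304285-98304485) is shown because it held an AP-1 word inside a coding gene.
FECH intron 1: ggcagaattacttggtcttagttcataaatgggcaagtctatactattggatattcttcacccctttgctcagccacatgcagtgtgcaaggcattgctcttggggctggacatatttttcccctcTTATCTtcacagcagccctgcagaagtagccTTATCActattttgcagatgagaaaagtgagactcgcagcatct
CPOX exon 5: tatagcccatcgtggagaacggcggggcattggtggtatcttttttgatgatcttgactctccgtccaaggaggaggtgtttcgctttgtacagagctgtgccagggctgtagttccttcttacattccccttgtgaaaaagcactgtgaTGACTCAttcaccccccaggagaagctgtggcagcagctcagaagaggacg

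The libraries held 29269 to 33616 peaks. Read totals are not given in peak lists, so depth was recovered from the background that the caller used. Relative to PBS replicate 1, PBS replicate 2 had a depth of 1.42, while the SCF libraries had depths of 0.883 (replicate 1) and 0.843 (replicate 2). Both SCF libraries were thus shallower than both PBS libraries, and depth and treatment cannot be told apart. The erythroid label was checked on marker promoters. Of 10 erythroid markers, 9 had an accessible promoter in all 4 libraries and KIT had one in 3. Of 15 markers of T cells, B cells, hepatocytes, granulocytes and monocytes, and endothelium, 0 had one in all 4, and only ELANE was called, in 3 libraries.

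Of the 52 regions, 30 were called in all 4 libraries (57.7%, against 51.3% of all regions), 4 in 3 and 4 in 2. In a single library 14 were called (26.9%, against 26.5%). Of the 14, SCF replicate 1 held 7, SCF replicate 2 held 4, PBS replicate 2 held 2 and PBS replicate 1 held 1. Of all 11571 single-library regions, the same libraries held 1815, 3915, 3780 and 2061, in that order. Whether the 14 differ from this background was not tested. Distances below are from a gene's canonical start and can exceed 30 kb, since the rule used every annotated start. By position, 13 regions lay within 1 kb of a protein-coding start of a member, 11 lay at a start of another gene, 8 lay elsewhere in a member's body and 20 lay in the flanks. Promoters of any gene thus made up 24 of 52 regions (46.2%), against 31.1% of all regions. The rule takes regions in and around genes, so it favours promoters by design. The share called in all 4 libraries was 10 of 13 at the members' own starts (76.9%) and 10 of 11 at other starts (90.9%), against 82.6% of all promoter regions. It was 5 of 8 in gene bodies and 5 of 20 in flanks, together 10 of 28 (35.7%), against 37.2% of all other regions. The shares called in all 4 libraries were thus near those of all promoter regions and of all other regions. The member region nearest the limit of 30 kb lay 29.3 kb from an SLC25A38 start and was called in PBS replicate 2 (rank 11.7) and SCF replicate 2 (27.1). The nearest region beyond it, a promoter 31.9 kb from a PPOX start, was called in all 4 libraries (75.4, 72.1, 88.1 and 79.1) and is not a member. The maps of the 9 genes show that each gene had its own arrangement of these classes.

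**Figure D1:**
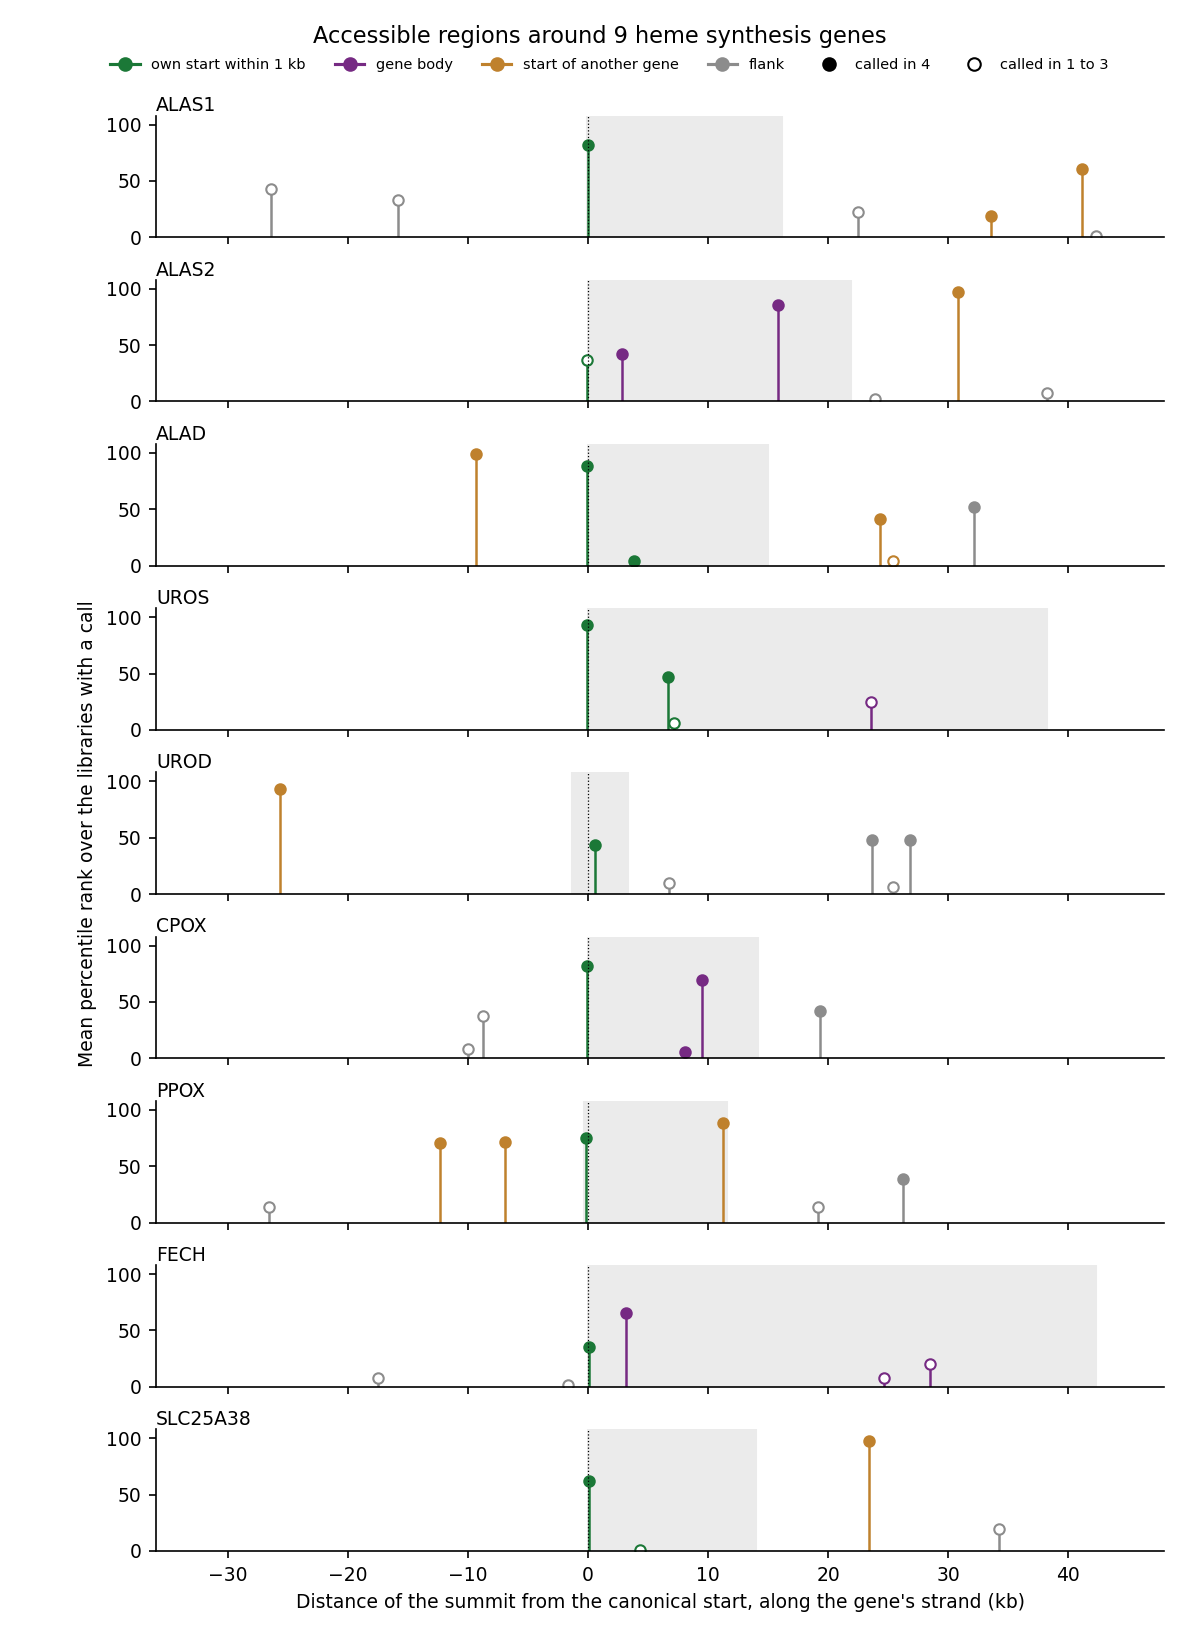
Accessible regions around the 9 genes: the x axis is the distance of the summit from the canonical start along the gene's strand (kb), the y axis is the mean percentile rank over the libraries with a call, and grey shading marks the gene body. Filled circles were called in 4 libraries and open circles in 1 to 3; the start of ALAS2 is open, whereas the starts of the other 8 genes are filled.

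Levels are given as the percentile rank of a peak's fold enrichment within its own library's list, where 100 is the highest, and the fold enrichment is the summit pileup plus 1 over the local background plus 1. Of the 9 members, 8 had a peak at their own start in all 4 libraries, and ALAS2 was the exception. Among the 8, mean ranks over the 4 libraries ran from 35.2 at FECH to 93.1 at UROS. Over all promoter regions called in 4 libraries the median was 75.4. In descending order the starts were those of UROS, ALAD (88.0), CPOX (82.2), ALAS1 (81.6), PPOX (75.1), SLC25A38 (62.1), UROD (43.9) and FECH. The ranges of neighbours in this order overlapped, except that every library ranked SLC25A38 below all values of PPOX and above all values of UROD. The order holds for fold enrichment, which divides by the local background, and it differed when starts were ranked by summit pileup alone. On that scale PPOX (95.1 to 96.8) lay above UROS (83.1 to 90.6) in every library. UROD (83.8 to 87.9) likewise lay above ALAS1 (75.4 to 76.7).

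**Figure D2:**
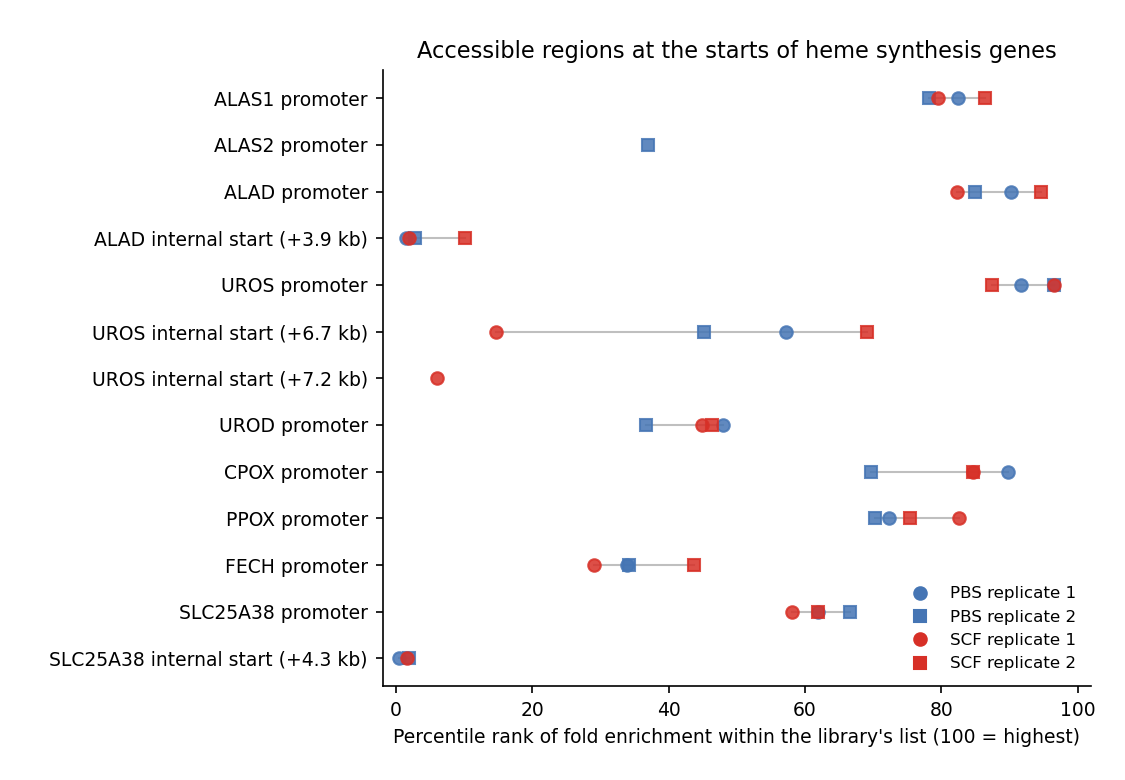
Percentile rank of fold enrichment (x axis, 0 to 100) of each region within 1 kb of a protein-coding start of a member, 1 point per library, PBS in blue and SCF in red, circles for replicate 1 and squares for replicate 2. Grey lines span the libraries; the ALAS2 promoter has 1 point, from PBS replicate 2, and the internal starts of ALAD and SLC25A38 lie near 0.

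The first step of the pathway showed opposite arrangements in its isoenzymes. At ALAS1, the start held a single region on chromosome 3 (52231620 to 52232724, hg19). Its ranks were 82.5 and 78.1 with PBS and 79.4 and 86.4 with SCF, and the treatments overlapped. This window was the only heme gene region with the NRF1 word, which 0.429% of all regions held. No peak was called elsewhere in the ALAS1 body. Of its 4 flank regions none was called in all 4 libraries. The one 15.8 kb upstream was called in 3, with ranks of 10.5 and 27.8 with PBS and 61.6 in SCF replicate 2.

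At ALAS2, the promoter region on chromosome X (55057424 to 55057763) was called only in PBS replicate 2, the deepest library, at a rank of 36.97 and a summit pileup of 20. Not being called says only that no peak passed the authors' threshold at that depth. The 2 introns with known enhancers were both called in all 4 libraries. The region of intron 8 (55041261 to 55042163), 15.8 kb into the gene, had ranks of 81.5 and 72.0 with PBS and of 91.5 and 95.5 with SCF. Both SCF values lay above both PBS values, and its summits lay within 40 bp of each other in the 4 libraries. The region of intron 1 (55054137 to 55055176), 2.85 kb into the gene, had ranks of 37.9 and 44.5 with PBS and of 45.0 and 40.9 with SCF, which overlapped. Intron 8 outranked intron 1 in 4 of 4 libraries.

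The intron 8 region was the single heme gene region with a rank gain, defined as both SCF ranks at least 10 points above both PBS ranks. By this rule 2.55% of the 22398 regions called in all 4 libraries gained rank, and 1 of the 30 heme gene regions did, so the count of members was near the background. The mean rank was 76.8 ± 6.67 (SD, n = 2) with PBS and 93.5 ± 2.82 (SD, n = 2) with SCF, a difference of 16.7 points (SE 4.25). In the limma fit across all 22398 regions its unadjusted p was 0.00714 and its Benjamini-Hochberg adjusted p was 0.824, so the difference did not pass the test. The fold enrichments behind the ranks were 11.8 and 9.72 with PBS and 14.3 and 14.9 with SCF. The summit pileups were 41 and 39 with PBS and 49 and 45 with SCF, and divided by relative depth they were 41.0 and 27.4 against 55.5 and 53.4. The 4 ranks ran in the reverse order of the libraries' depth, and the part of depth in this difference was not tested. Ranked by pileup over background, without the 1 added to each in the deposited fold, the values were 85.4, 74.2, 94.8 and 98.0, and by pileup alone 67.4, 61.3, 72.9 and 74.4. On both scales the treatments stayed apart, but by less than 10 points, and the region was no longer a gain.

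**Figure D3:**
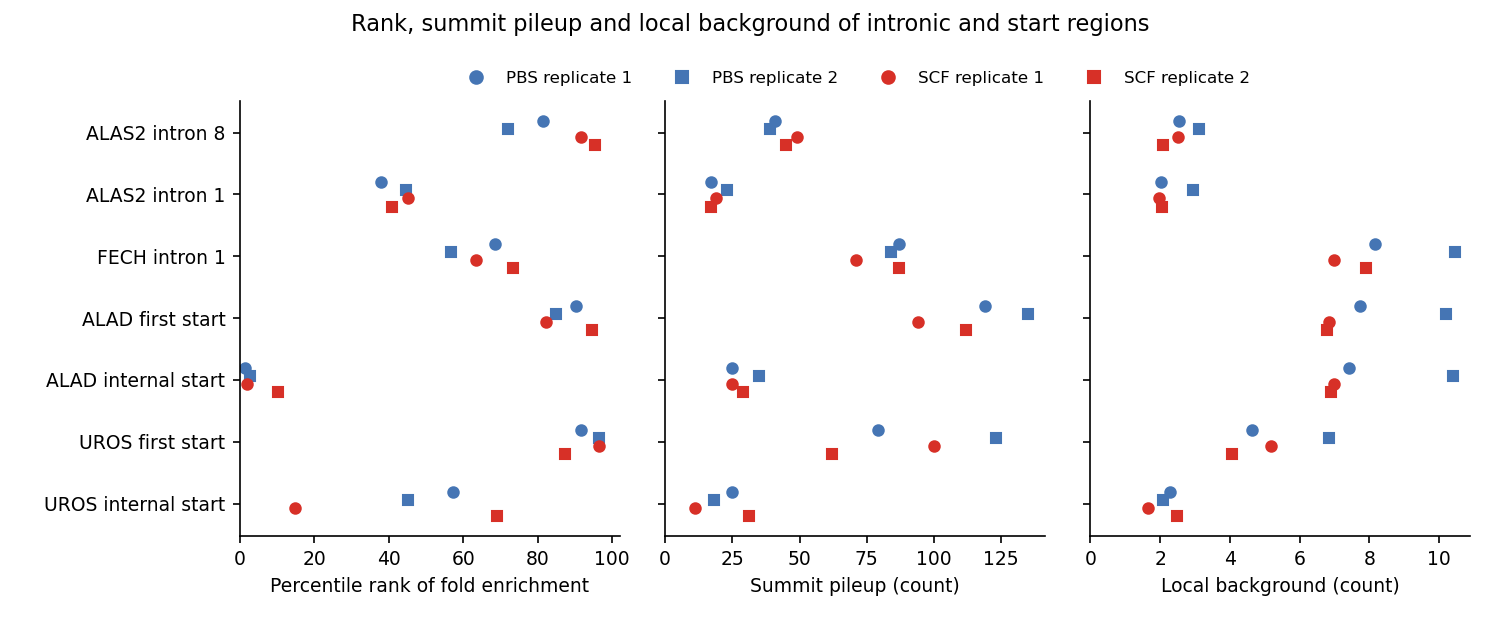
Percentile rank of fold enrichment (left), summit pileup (middle) and local background (right), both as counts, in the 4 libraries (blue PBS, red SCF; circles replicate 1, squares replicate 2) for 3 intronic regions and the paired starts of ALAD and UROS. The internal starts of ALAD and UROS have overlapping pileups (25 to 35 and 11 to 31), whereas the local background is 6.91 to 10.4 at ALAD and 1.65 to 2.48 at UROS.

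The carrier SLC25A38 had a start region on chromosome 3 (39424777 to 39426094) with ranks of 61.9 and 66.6 with PBS and of 58.1 and 62.0 with SCF. The values of the treatments overlapped. An internal start 4.34 kb into the gene (named after its values were seen, as are the internal starts of ALAD and UROS) was called in 3 libraries, at ranks of 0.458, 1.85 and 1.66. Its pileups of 25, 42 and 28 were above the medians of those libraries (23, 26 and 23), but the local background there was 8.06 to 13.4. The window held a GATA word and a KLF and SP word.

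ALAD, the second enzyme, had both starts accessible in all 4 libraries. The first start on chromosome 9 (116163223 to 116164026) ranked 90.2 and 85.0 with PBS and 82.3 and 94.6 with SCF. The internal start (116159425 to 116159956), 3.87 kb into the gene, ranked 1.47 and 2.75 with PBS and 1.90 and 10.1 with SCF. The treatments overlapped at both starts. The pileups were 94 to 135 at the first start and 25 to 35 at the internal start, over nearly the same local background (6.78 to 10.2 and 6.91 to 10.4). Ranked by pileup alone instead of fold enrichment, the internal start lay near the middle of the lists, at 52.3 and 58.3 with PBS and 52.2 and 61.5 with SCF. The GC content of the windows was 72.1% at the first start and 61.2% at the internal start, and the observed over expected CpG ratio was 0.706 and 0.

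UROS, which closes the ring, had the highest start of the set by mean rank of fold enrichment, though not by summit pileup alone. The first start on chromosome 10 (127511420 to 127512538), shared head to head with BCCIP, ranked 91.7 and 96.6 with PBS and 96.6 and 87.4 with SCF. The internal start (127504970 to 127505561), 6.65 kb into the gene, ranked 57.1 and 45.1 with PBS and 14.7 and 69.0 with SCF. The SCF replicates held both the lowest and the highest value of the 4, and the means, 51.1 ± 8.50 with PBS and 41.9 ± 38.4 with SCF (SD, n = 2 each), differed by less than the SCF spread. The pileups followed the ranks, at 25, 18, 11 and 31. A further region beside it, at 7.18 kb, was called only in SCF replicate 1, at a rank of 6.0.

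UROD, which decarboxylates the ring, had 1 region over its short gene, on chromosome 1 (45476795 to 45478775). It was the widest of the 52 heme gene regions, at 1981 bp, and its summits were spread over 417 bp between libraries, against a median of 99.5 bp for the 30 heme gene regions. Its ranks were 47.9 and 36.7 with PBS and 44.8 and 46.3 with SCF, which overlapped. The pileups of 67 to 98 were well above the library medians, and the local background was 9.68 to 16.9. Of its 4 flank regions, all of which lie in the gene ZSWIM5, those at 23.7 kb and 26.9 kb were called in all 4 libraries with mean ranks of 47.7 and 48.4, and both held a GATA word.

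CPOX had 3 regions called in all 4 libraries within the gene, all on chromosome 3. The promoter (98312084 to 98313004) ranked 89.7 and 69.7 with PBS and 84.6 and 84.6 with SCF, so that the PBS replicates lay on either side of the SCF replicates. It was the only first start of a member called in all 4 libraries with a GATA word. The intron 5 region (98302489 to 98303543) ranked 69.3 and 76.2 with PBS and 63.5 and 69.8 with SCF, and it held none of the 9 words searched. The exon 5 region (98304238 to 98304617) ranked 6.52 and 5.38 with PBS and 6.55 and 3.19 with SCF, the lowest of the 5 gene-body regions called in all 4 libraries, and it held an AP-1 word. Neither region separated the treatments.

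PPOX had a start region on chromosome 1 (161135431 to 161136909) with ranks of 72.3 and 70.3 with PBS and of 82.6 and 75.4 with SCF. Both SCF values lay above both PBS values, by less than 10 points. The means were 71.3 ± 1.45 and 79.0 ± 5.12 (SD, n = 2 each), and the limma adjusted p was 0.863. Ranked by pileup over background, the treatments overlapped (53.6, 56.9, 66.5 and 54.3). At the other end of the gene lay the start of B4GALT3 (161146532 to 161147662), with ranks of 87.2, 88.2, 85.1 and 94.1. No other region was called inside PPOX.

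FECH, the last enzyme, had an intronic region that outranked its promoter. The promoter on chromosome 18 (55253540 to 55254211) ranked 33.9 and 34.2 with PBS and 29.0 and 43.7 with SCF. The region in intron 1 (55250384 to 55251312), 3.17 kb into the gene, ranked 68.5 and 56.6 with PBS and 63.5 and 73.3 with SCF. The intron was above the promoter in 4 of 4 libraries, and the treatments overlapped at both. A weak region in intron 7 (55224999 to 55225566) was called in both PBS libraries, at ranks of 10.3 and 30.2 and pileups of 8 and 13, and in neither SCF library. Its summit lay 1004 bp from an annotated FECH start, just beyond the promoter limit of 1 kb. It was the only PBS-only heme gene region (1 of 52, against 2.37% of all regions), and 0 of 52 were SCF-only, against 1.65% of all regions. The part of the lower depth of the SCF libraries in this missing call was not tested.

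The 9 genes were assigned 36 and 40 peaks with PBS and 40 and 38 peaks with SCF. Group means were 38 ± 2.83 and 39 ± 1.41 (SD, n = 2 each), and a two-sided exact permutation test gave p = 1, where the smallest p that 2 against 2 libraries allow is 0.333. For the 30 heme gene regions with a call in every library, the rank difference, SCF minus PBS, had a median of 0.633 points, against −0.527 over all regions. It was above 0 in 16 regions and below 0 in 14. The single rank loss (1 of 30, against 3.04% of regions) was at the start of HDHD3, 24.3 kb from the ALAD start and outside the member's body. Its ranks were 53.9 and 49.8 with PBS and 39.7 and 21.5 with SCF, a difference of −21.3 points (SE 10.2) with a limma adjusted p of 0.836. Regions whose treatments did not overlap by any gap were 3 of 30 with SCF higher, at the starts of EIF2B3 (in the UROD window) and PPOX and in ALAS2 intron 8, against 16% of all regions. With PBS higher there were 5 of 30, against 19.3%. These were the starts of UFC1 and USP21 near PPOX, of RPSA near SLC25A38 and of HDHD3, and a flank region 32.1 kb from the ALAD start. None of these 5 was at a start or in the body of a member.

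**Figure D4:**
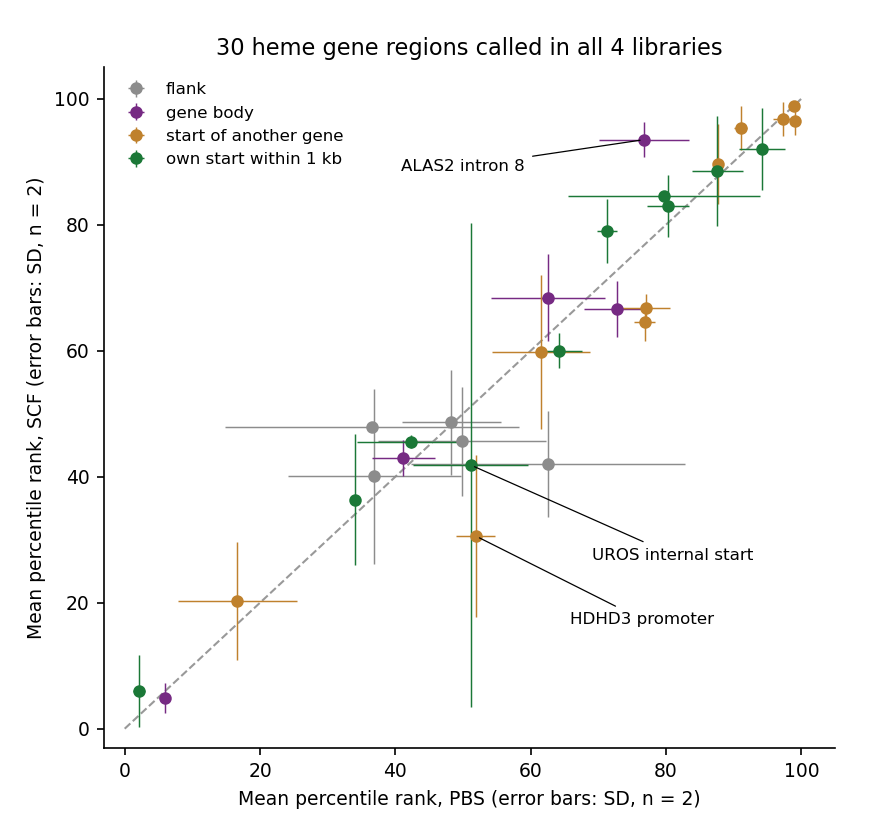
Mean percentile rank with PBS (x axis) and with SCF (y axis) of the 30 heme gene regions called in all 4 libraries, with error bars for the SD of 2 libraries and a dashed line of equality. ALAS2 intron 8 lies above the line (76.8 and 93.5), the HDHD3 promoter below it (51.9 and 30.6), and the UROS internal start has the widest bar.

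In the limma fit across the 22398 regions, 0 regions (0%) passed an adjusted p of 0.05, and none of the 30 heme gene regions did. At an unadjusted p under 0.05, 573 regions were higher with SCF (2.56%) and 742 were lower (3.31%). The heme gene regions among them were 1 higher, ALAS2 intron 8, and 0 lower. The smallest adjusted p over all regions was 0.824, which is also the value of ALAS2 intron 8. The Benjamini-Hochberg adjustment can give regions of different unadjusted p the same value, so this does not place intron 8 first among all regions. With 2 libraries per treatment these values do not show that accessibility was equal. The standard errors at the members' first starts, 3.48 to 9.39 points, give the size of the spread.

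The promoters of 16 genes that move, break down or sense heme and its precursors were examined beside the pathway. All 16 were called in all 4 libraries, against 82.6% of all promoter regions, but each gene's highest-ranked start region was taken. None gained or lost rank, against 110 gains and 227 losses among the 11172 promoter regions called in all 4. In the limma test 0 of 16 passed, adjusted or unadjusted, against 0% and, unadjusted, 2.56% (higher) and 3.31% (lower) of all regions. The rank was higher with SCF at 6 and lower at 10, against 43.0% of promoter regions higher. The median difference was −1.47 points, against −0.803. The extremes were TMEM14C, a mitochondrial protein of porphyrin transport, at −16.8 points (SE 9.28; 42.9 and 35.7 with PBS, 14.8 and 30.3 with SCF), and BACH1, a repressor that heme binds, at 9.06 points (SE 6.92; 68.1 and 63.7 with PBS, 79.4 and 70.4 with SCF). In both, the values of the treatments did not overlap, but the smallest adjusted p was 0.841. HMOX1, the inducible heme oxygenase, had ranks of 44.7 and 84.5 with PBS and 67.1 and 57.2 with SCF, so the PBS replicates enclosed the SCF replicates.

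The windows of 100 bases on each side of the summit were searched on both strands for 9 words, whose shares among all 43569 regions on the 24 chromosomes used are given as background. The GATA words AGATAA or TGATAA were in 20 of 52 heme gene regions (38.5%), against 25.4% of all regions. Away from promoters they were in 15 of 28 (53.6%), against 34.3% of all such regions. At promoters they were in 5 of 24 (20.8%), against 5.73% of all promoters. All 5 were at the members' own starts, namely the CPOX and ALAS2 promoters and the internal starts of ALAD, UROS and SLC25A38. The first starts of ALAS1, ALAD, UROS, UROD, PPOX, FECH and SLC25A38 held none in these windows. The UROD window was centred on the summit of PBS replicate 1, and the summits of the other libraries lay outside it. ALAS2 held a GATA word in the promoter and intron 1 windows and 2 in the intron 8 window, as shown above. The intron 1 window was centred on the summit of SCF replicate 1, and the summits of PBS replicate 2 and SCF replicate 2 lay outside it.

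The AP-1 word TGANTCA was in 7 of 52 regions (13.5%), against 8.43%, including the ALAS2 promoter, CPOX exon 5 and the HDHD3 promoter. The EGR word GCGTGGG was in 2 (3.85%, against 3.80%), of which FECH was the only own start. The KLF and SP word CCNCNCCC was in 17 (32.7%, against 38.2%), and 8 of these were own starts. The ETS word CCGGAA was in 3, all own starts (5.77%, against 8.15%). The NF-Y word CCAAT was in 11 (21.2%, against 22.1%), the E-box CANNTG in 35 (67.3%, against 61.2%), and the cAMP response element TGACGTCA in 0 of 52, against 0.682%. A short word such as CCAAT can lie inside or beside others, and a match describes letters only. The one region with a rank gain, ALAS2 intron 8, held GATA and E-box words and neither the AP-1 nor the EGR word. By the shares above, each of the latter words is absent from most regions, so their absence from 1 region says little.

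**Figure D5:**
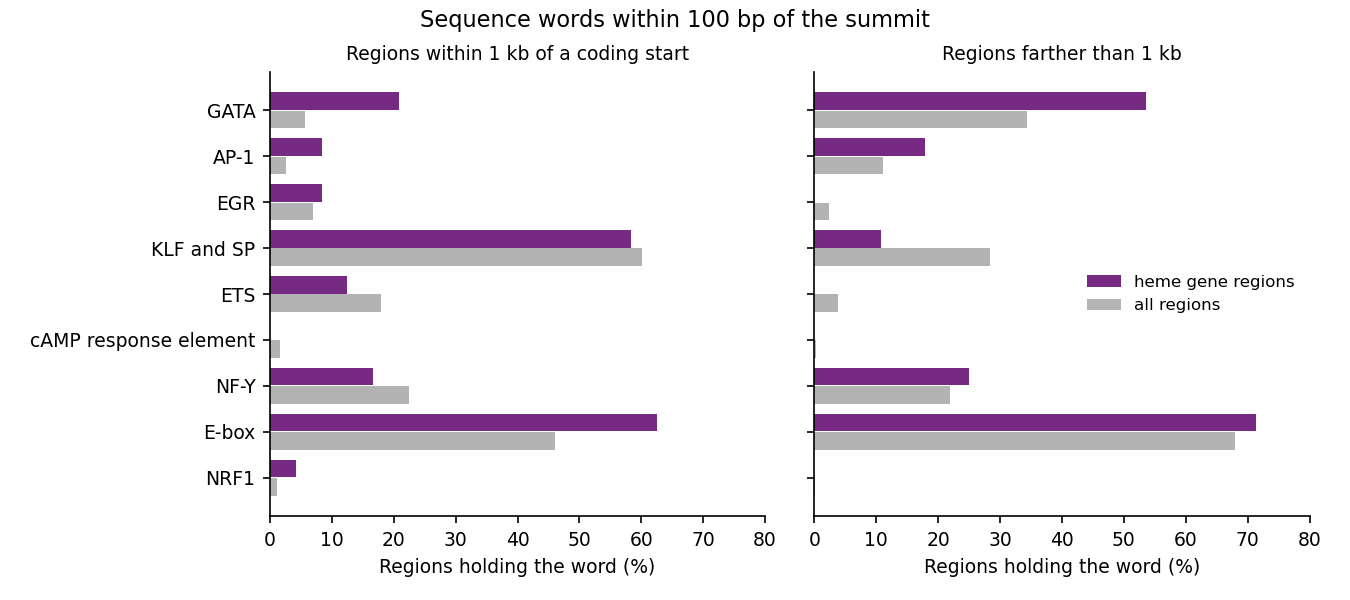
Share of regions (x axis, %) holding each of 9 sequence words within 100 bp of the summit, for heme gene regions (purple) and all regions (grey), at promoters (left, 24 heme gene regions) and farther than 1 kb from a coding start (right, 28 heme gene regions). The purple GATA bars, at 20.8% and 53.6%, exceed the grey bars at 5.73% and 34.3%.

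Starts of other genes made up 11 of the regions in these windows, and 10 were called in all 4 libraries. Of the 10, 4 outranked the highest own start of the member beside them in every library, namely those of POLE3 near ALAD (98.2 to 99.4), RPSA near SLC25A38 (94.9 to 99.4), EIF2B3 near UROD (90.4 to 97.8) and B4GALT3. HDHD3 near ALAD and both starts near ALAS1 ranked below the member's own start in every library, and UFC1 and USP21 ranked above that of PPOX in both PBS libraries and below it in both SCF libraries. APEX2 near ALAS2 could be compared in PBS replicate 2 only, where it was higher. At APEX2, which lies 30.8 kb from the ALAS2 start, the ranks were 96.3 and 98.4 with PBS and 98.7 and 94.9 with SCF. The library values overlapped there, whereas at ALAS2 intron 8 in the same window they did not. The starts of UFC1 and USP21 upstream of PPOX ranked lower with SCF in both libraries, at 62.4 and 66.6 against 77.9 and 75.8 for UFC1 and at 68.3 and 65.1 against 74.5 and 79.6 for USP21. The PPOX start between these and B4GALT3 had its ranks in the other direction, and none of the 3 differences passed the limma test (adjusted p = 0.836, 0.844 and 0.863).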

How the data were processed

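ATAC-seq peak lists of the 4 sgControl HUDEP-2 libraries (PBS and SCF, 2 each) were analysed, each called on its own library. Per the labels and the study's methods, the authors sequenced paired ends and used bcl2fastq, Bowtie2, SAMtools and the ENCODE ATAC-seq pipeline; caller settings and tool versions are not given in the sources used here. The deposited lists and the series' design name hg19, whereas the methods name hg38; no peak end exceeded a chromosome of GRCh37, so hg19 was used. Peak names inside the lists carry other replicate numbers than the labels, and the labels were used. The deposited columns are a score (not used), a fold enrichment (a ratio of the summit pileup plus 1 to the local background plus 1), and −log10 values of p and of q (a p-value and a q-value per peak). The highest q-value in a list was 0.0478 to 0.0497. Fold enrichment and −log10 p together gave a whole-number pileup for 100% of peaks with a −log10 p under 300 (relative error at most 0.0001). The lowest background in a list, over its shortest peak, gave relative depth.

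Peaks sharing at least 1 bp were merged into regions, and starts and gene bodies came from GENCODE release 44 lifted to GRCh37. Ranks were compared with limma 3.58.1 (R 4.3.3, eBayes with trend, Benjamini-Hochberg over all regions called in all 4 libraries). The code was run on simulated data in which every region had the same normal spread. In these data the spread differed between regions, with a standard error of 1.27 points at the POLE3 start and 18.1 at the UROS internal start. The simulation therefore does not show how the fit performs on these ranks. Tables were made with Python 3.11.15, pandas 2.3.3 and scipy 1.17.1. Named regions were each member's highest-ranked own start, every gene-body region called in at least 2 libraries, and every region called in both libraries of 1 treatment and neither of the other, or with a rank gain or loss. The members, lists and words were chosen with earlier results of these data known.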

Additional observations from a re-analysis of the deposited data

How the results depend on the processing

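The direction of the rank difference held under all alternatives at 5 of the 15 named regions with a test (ALAS2 intron 8, HDHD3, PPOX, SLC25A38 and CPOX intron 5) and reversed under at least 1 at the other 10. At ALAS2 intron 8, HDHD3 and PPOX the treatments did not overlap, so leaving out a library could not reverse the direction. HDHD3 was also named through its rank loss in these same values. The replicate block and the fit on regions called in at least 3 libraries leave the difference itself unchanged, so they could reverse no direction. The lowest adjusted p under any alternative was 0.643, so no call was made or lost. ALAS2 intron 8 differed by 12.0 to 21.5 points when each library was left out in turn (12.0 without PBS replicate 2, 21.5 without PBS replicate 1), by 18.8 with the same number of peaks per library and by 0.461 in quantile-normalized log2 fold enrichment, with adjusted p from 0.643 to 1.00. When ranked by pileup over background the differences of the UROD promoter (−0.0327), the B4GALT3 promoter (−0.539) and the ALAD promoter (−1.47) reversed, by pileup alone that of UROD (−1.79), and with the same number of peaks that of CPOX exon 5 (0.616). Leaving out a library gave −2.36 to 8.87 at UROD, −2.61 to 6.41 at B4GALT3, −6.79 to 2.42 at UROS, −0.0630 to 11.8 at FECH intron 1, −5.02 to 9.64 at the FECH promoter, −0.873 to 6.13 at ALAS1, −2.76 to 0.601 at CPOX exon 5, −5.12 to 14.9 at the CPOX promoter, −5.25 to 7.04 at ALAD and −1.54 to 5.10 at ALAS2 intron 1.

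The SCF minus PBS difference in peak number was −1 with the same number of peaks per library, −1.5 at a −log10 q of at least 5 and −1 to 3 with a library left out. Counts of heme gene regions follow with the share of all regions under the same setting. SCF-only regions numbered 1 of 59 when summits at most 150 bp apart were joined (2.31% of all) and 0 to 7 with a library left out (3.11 to 11.1%), namely 4 of 45 without SCF replicate 1 (11.1%) and 7 of 48 without SCF replicate 2 (6.43%). PBS-only regions numbered 0 of 39 at the stricter q (2.86%) and 2 to 4 with a library left out (4.61 to 11.6%), the 4 being of 45 without SCF replicate 1 (4.61%). Rank gains were 0 of 30 at a gap of 20 points (0.397%), by pileup over background (3.31%) and by pileup alone (1.00%), and 2 to 3 of 30 to 33 with a library left out (5.94 to 11.2%). Rank losses were 0 of 30 with the same number of peaks (2.93%), 0 of 20 within 15 kb (3.04%), 3 of 30 at a gap of 5 points (7.73%), 0 at a gap of 20 points (0.545%), 2 by pileup over background (4.83%) and 2 to 3 with a library left out (7.19 to 14.4%). A treatment left with 1 library meets each rule more easily, and limma then assumes that it varies like the other. Ranking by pileup alone, fitting either pileup ranking, and the fit on regions called in at least 3 libraries were chosen after seeing the data. Within 250 bp of the summit, GATA words were in 53.8% of heme gene regions (41.4% of all), EGR in 13.5% (8.87%), KLF and SP in 65.4% (62.0%), NF-Y in 46.2% (44.2%) and the E-box in 96.2% (88.6%).

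Replicate numbers are shared between treatments, but nothing says that they pair the libraries, and the replicate differences of the treatments correlated at r = 0.0239 over regions. With the replicate number as a block, the peak difference was 1 (4 and −2 within numbers, exact p = 1), 0 heme gene regions passed and ALAS2 intron 8 had an adjusted p of 0.778.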
